A study of Rattus norvegicus with 20 samples.

Results

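The genes described here are 10 purinergic receptor genes, the ATP-gated channel genes P2rx2, P2rx3, P2rx4, P2rx5, P2rx6, and P2rx7 and the G protein-coupled receptor genes P2ry1, P2ry2, P2ry12, and P2ry14. They were taken by gene symbol from the count table, in which each symbol marks a single feature, and they make up 10 of the 39747 features counted. The rule itself uses symbols and no measured value, but the set was chosen with earlier results of these data known. Poly-A RNA was sequenced from whole dorsal root ganglia (DRG) of 14 young adult female Sprague-Dawley rats, all fed a defined diet for 4 weeks before surgery. The soy oil diet (SOD) was the control diet, and the fish oil diet (FOD) supplied omega-3 fatty acids. Chronic constriction injury (CCI) consisted of 4 loosely tied ligatures on the sciatic nerve of the left leg, while in sham rats (CT) that nerve was exposed without being tied. Of the 14 libraries of left DRG, 4 were SOD-CT, 4 FOD-CCI, 3 SOD-CCI, and 3 FOD-CT. A further 6 came from contralateral (right) DRG, from each SOD-CCI rat and from 3 of the FOD-CCI rats, so that there were 20 libraries in all. The labels state 1 week of recovery, whereas the series' design text has the diets going on for 4 weeks after surgery. The authors place the collection of the sequenced DRG at 1 week after CCI. The ganglion level is not given, and only part of the neurons of a lumbar ganglion send an axon through the ligated nerve. A sham nerve was also exposed surgically, so every left ganglion of the study lies on an operated side.

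Extracellular nucleotides are signals released by damaged, stretched, or active cells. P2X receptors are trimeric cation channels opened by ATP, and P2Y receptors couple to G proteins and respond to ATP, ADP, UTP, or UDP sugars according to the subtype. In sensory ganglia P2X3 is the best known of them. It is made by nociceptors, most of all by the small nonpeptidergic ones, and opens their terminals to ATP from damaged tissue, alone or together with P2X2. P2X4, P2X7, and P2Y12 are better known from macrophages and microglia, and P2X7 also from satellite glia.

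Libraries held between 22547190 and 54437581 counts, and 4 of them stood apart in composition. Levels within a gene are given in CPM, the count scaled to a library size normalized by TMM. The 10 spinal cord glia genes summed to between 3154 and 5180 CPM in FOD-CT replicate 1, FOD-CCI replicate 1, and the contralateral library of the same FOD-CCI rat, and to at most 229 CPM in the other 17 libraries. The contralateral library of FOD-CCI replicate 1 also held few neuronal transcripts, at 3685 CPM over 10 neuron markers against 9677 CPM or more elsewhere. SOD-CT replicate 1 carried 154133 CPM of 10 skeletal muscle transcripts, compared with at most 23828 CPM in any other library. The 10 sham and contralateral libraries that did not stand apart held 5.94 to 23828 CPM of them. The left CCI libraries held at most 60.6 CPM in SOD-CCI and 192 CPM in FOD-CCI. Leaving out SOD-CT replicate 1 therefore does not even out muscle content between CCI and CT, and the part of muscle in the results was not tested. Of the 12778 features with a median count of at least 100, 412 had no count in SOD-CT replicate 1 and 191 had none in the contralateral library of FOD-CCI replicate 1, against a median of 5 per library. Atf3, the classical marker of injured sensory neurons, was at 219 to 521 CPM in 6 of the 7 left CCI libraries and at 6.77 to 52.3 CPM in the sham and contralateral libraries, but at 3.19 CPM in the library labelled FOD-CCI replicate 1. That library therefore goes against its injury label, and differences named below are also given without it, or without all 4 libraries, where that turned their direction, changed a call, or moved them by more than 1.5 times.

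The promoters of 7 of the 10 genes, taken from RefSeq on GRCr8, are in the reference table used here, with 2 start sites for P2rx3. The 250 bases upstream of the start are shown for 3 genes. They are the most abundant receptor gene (P2rx3, at its upstream start) and 2 further genes with an entry (P2rx6 and P2ry1). Those 2 were lower on the left than on the contralateral side in 5 of 6 rats, and neither was called in the main test with all libraries. Each sequence is written in the direction of transcription, in lower case with matches to the GC box GGGCGG, on either strand, in capitals. P2rx3 lies on the minus strand at chr3:90531316-90531565, P2rx6 on the minus strand at chr11:96954204-96954453, and P2ry1 on the plus strand at chr2:147391411-147391660.

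P2rx3: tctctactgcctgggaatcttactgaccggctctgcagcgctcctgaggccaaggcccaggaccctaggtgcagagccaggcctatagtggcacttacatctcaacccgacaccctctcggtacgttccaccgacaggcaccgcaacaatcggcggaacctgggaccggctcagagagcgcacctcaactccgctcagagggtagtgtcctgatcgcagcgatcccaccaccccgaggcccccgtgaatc

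P2rx6: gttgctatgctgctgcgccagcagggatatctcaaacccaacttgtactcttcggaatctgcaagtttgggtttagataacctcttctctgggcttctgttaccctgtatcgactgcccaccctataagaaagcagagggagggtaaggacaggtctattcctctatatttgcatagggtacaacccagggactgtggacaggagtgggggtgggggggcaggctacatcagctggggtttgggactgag

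P2ry1: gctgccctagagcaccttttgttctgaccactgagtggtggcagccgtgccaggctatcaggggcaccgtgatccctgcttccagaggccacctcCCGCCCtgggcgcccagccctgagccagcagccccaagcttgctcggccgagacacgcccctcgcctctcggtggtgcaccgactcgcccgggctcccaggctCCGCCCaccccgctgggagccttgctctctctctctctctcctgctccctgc

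The P2ry1 window held 2 GC boxes, and the windows of P2rx6 and of the upstream P2rx3 start held none. A GC box was found in the windows of 4 of the 7 genes (P2ry1, P2ry2, P2rx7, and the downstream start of P2rx3), and in 30.5% of all 33469 promoters of the table. The letters of an AP-1 site (TGANTCA, in 6.34% of promoters), a CRE (TGACGTCA, 1.59%), and a Runx site (TGTGGT, 14.5%) were in none of the 8 windows. Along the chromosomes, P2rx4 and P2rx7 are next to each other on chromosome 12, with Camkk2 and Ift81 on either side, and P2ry2 is beside P2ry6 on chromosome 1.

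P2rx3 was by far the most abundant of these transcripts per length. In FPKM, the count scaled by gene length and by library size, which allows genes to be compared, its mean over the 20 libraries was 86.3 ± 34.9 (SD, n = 20). P2rx6 followed at 17.01 ± 6.25 FPKM, P2rx4 at 15.4 ± 4.596, P2ry2 at 10.3 ± 3.56, P2ry1 at 8.66 ± 4.13, and P2rx5 at 6.38 ± 2.40. The lowest were P2ry12 at 3.93 ± 2.40 FPKM, P2rx7 at 2.89 ± 1.36, P2rx2 at 2.54 ± 1.49, and P2ry14 at 1.49 ± 0.983. P2rx3 was above P2rx6 in 19 of 20 libraries, whereas P2rx6 and P2rx4 did not differ beyond their spread, with P2rx6 higher in 11 of 20. P2rx7 was above P2rx2 in only 12 of 20 libraries and P2ry2 above P2ry1 in 14, so those neighbours overlapped as well. The separation was clearer between P2rx4 and P2ry2 (16 of 20) and between P2rx5 and P2ry12 (17 of 20). P2rx3 made up 33.0 to 77.0% of the summed P2X FPKM in 19 libraries (median 68.7%). The exception was the contralateral library of FOD-CCI replicate 1, at 1.93%, which is also the library with the fewest neuronal transcripts.

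**Figure D1:**
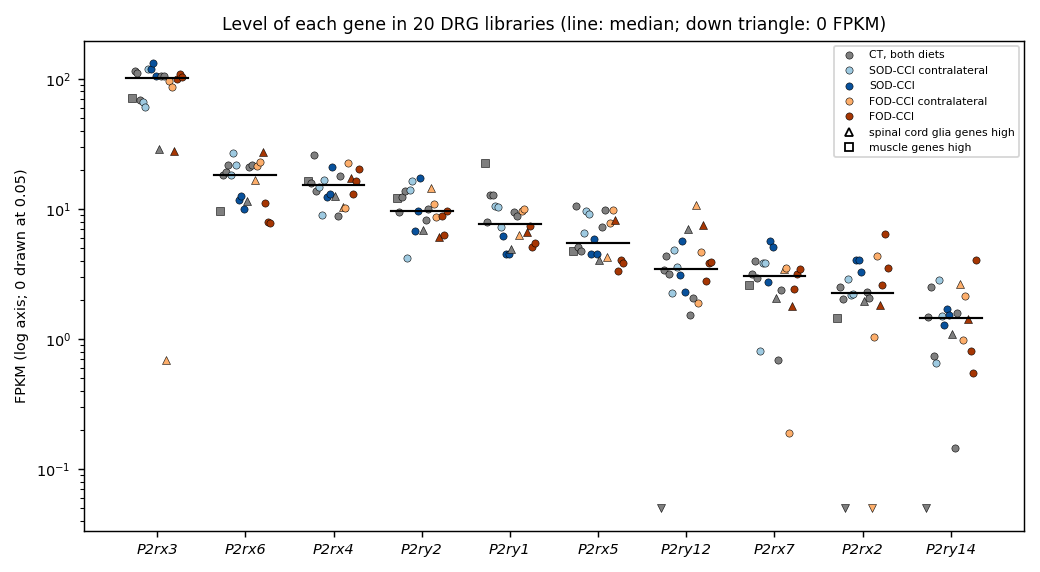
FPKM (log axis) of each gene in the 20 libraries, with the median as a line, color for the group, triangles for the 3 libraries with spinal cord glia transcripts, a square for the library with muscle transcripts, and inverted triangles for libraries at 0. P2rx3 lies well above the other genes (median 101 FPKM) except in 1 library at 0.688 FPKM.

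P2rx3 is the gene of the pore-forming subunit that carries the fast ATP current of nociceptors. It was at 271, 455, 435, and 279 CPM in the 4 SOD-CT libraries and at 462, 524, and 415 CPM in the 3 SOD-CCI libraries. The 3 FOD-CT libraries held 113, 419.6, and 416 CPM, and the 4 FOD-CCI libraries 109, 390.4, 423, and 407 CPM. The groups overlapped in both diets, and the low value in each FOD group belonged to replicate 1, the libraries with spinal cord glia transcripts. In the contralateral DRG the values were 262, 244, and 474 CPM in SOD-CCI rats and 2.65, 386, and 345 CPM in FOD-CCI rats.

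The difference of P2rx3 with injury lay within the spread between rats. CCI differed from CT by 0.24 on the log2 scale over both diets (SE 0.33, 95% interval −0.46 to 0.95, adjusted p = 0.823), and by 0.12 (SE 0.15, interval −0.19 to 0.44, adjusted p = 0.727) without the 4 libraries that stood apart. Left DRG had more P2rx3 than contralateral DRG in 5 of 6 rats, by a mean log2 difference of 1.04 (SE 0.62, adjusted p = 0.573). That size came from FOD-CCI replicate 1, where the left side was 41.2 times the contralateral side, and without that rat the difference was 0.39 (SE 0.20, adjusted p = 0.317). The ratio of left to contralateral CPM in the other rats was 1.76, 2.15, and 0.876 in SOD-CCI and 1.01 and 1.22 in FOD-CCI.

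P2rx2, the gene of the subunit that joins P2X3 in a slowly desensitizing channel, was rare. It was at 2.56, 4.65, 3.78, and 0 CPM in SOD-CT and at 7.47, 7.49, and 6.07 CPM in SOD-CCI, so that all SOD-CCI libraries were above all SOD-CT libraries, as were 9.56% of the 14484 genes tested. It was at 3.61, 4.34, and 3.85 CPM in FOD-CT and at 3.33, 4.83, 11.7, and 6.59 CPM in FOD-CCI, where the groups overlapped. In contralateral DRG it was at 5.45, 4.11, and 4.13 CPM in SOD-CCI rats and at 0, 1.94, and 8.07 CPM in FOD-CCI rats. The sham library at 0 (SOD-CT replicate 4) allows up to 0.115 CPM at 3 counts, and it contained neurons, at 17984 CPM of neuron markers. P2rx2 was higher on the left than on the contralateral side in 6 of 6 rats, as were 4.90% of the 14549 genes tested (3.05% were lower in all 6). The mean within-rat log2 difference was 1.73 (SD 2.45, n = 6, exact two-sided sign-change test p = 0.03125, the smallest p that 6 rats allow, with 10 genes tested and no adjustment over them). The contralateral library of FOD-CCI replicate 1 had no P2rx2 count, and its difference of 6.69 depends on the prior count. Without that rat, when 9.82% of genes were higher in all 5, the mean was 0.74 (SD 0.35, n = 5, exact p = 0.0625, the smallest that 5 rats allow). In the fit across all genes the left-to-contralateral difference was 1.36 (SE 0.66, adjusted p = 0.476), and 0.79 (SE 0.30, adjusted p = 0.197) without FOD-CCI replicate 1.

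P2rx6, which encodes a subunit that forms channels mainly in company with other P2X subunits, was lower in the injured ganglia of most rats. It was at 21.4, 42.6, 44.4, and 51.5 CPM in SOD-CT and at 26.6, 29.2, and 23.3 CPM in SOD-CCI. In FOD rats it was at 26.2, 49.7, and 51.1 CPM in sham DRG and at 62.8, 25.5, 18.2, and 18.2 CPM in CCI DRG. The 2 groups overlapped in SOD through SOD-CT replicate 1 (muscle transcripts) and in FOD through FOD-CCI replicate 1 (spinal cord glia transcripts). FOD-CT replicate 1, which also held spinal cord glia transcripts, was the lowest of its group but above the other FOD-CCI libraries. In contralateral DRG the values lay close to those of sham DRG, at 42.2, 63.3, and 50.5 CPM in SOD-CCI rats and at 37.7, 50.2, and 53.7 CPM in FOD-CCI rats.

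The left side held 0.630, 0.461, and 0.461 of the contralateral P2rx6 level in the 3 SOD-CCI rats and 0.508 and 0.339 of it in FOD-CCI replicates 2 and 3. In FOD-CCI replicate 1, the rat whose left library lacked the injury marker, the ratio was 1.66. Over all 6 rats the log2 difference was −0.78 (SE 0.27, interval −1.39 to −0.17, unadjusted p = 0.0178, adjusted p = 0.307) and did not pass the threshold of an adjusted p of at most 0.1 with a fold change of at least 1.2. Without FOD-CCI replicate 1 it fell by 1.10 (SE 0.16, adjusted p = 0.00588), lower in 5 of 5 rats, as were 10.9% of genes. Against sham DRG, CCI differed by −0.50 (SE 0.30, adjusted p = 0.553) with all libraries and fell by 1.04 (SE 0.14, adjusted p = 0.00227) without the 4 libraries that stood apart. In that fit P2rx6 fell in each diet, by 0.79 (SE 0.18, adjusted p = 0.0882) in SOD and by 1.28 (SE 0.20, adjusted p = 0.0195) in FOD, where 0.376% and 1.57% of genes were called lower.

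P2rx5, the gene of another P2X subunit, was also lower on the left side in 5 of 6 rats. It was at 11.05, 25.7, 12.4, and 11.8 CPM in SOD-CT, at 10.9, 14.4, and 11.1 CPM in SOD-CCI, at 9.69, 17.9, and 23.9 CPM in FOD-CT, and at 19.9, 8.08, 9.70, and 9.42 CPM in FOD-CCI. The groups overlapped in both diets. In SOD they overlapped with or without the single high SOD-CT library, and in FOD replicate 1 of both groups ran against the rest of its group. In contralateral DRG it was at 15.9, 23.8, and 22.2 CPM in SOD-CCI rats and at 10.2, 19.2, and 24.0 CPM in FOD-CCI rats, which exceeded the left value in every rat but FOD-CCI replicate 1. The left side held 0.687, 0.604, and 0.4996 of the contralateral level in the SOD-CCI rats, 0.422 and 0.404 in FOD-CCI replicates 2 and 3, and 1.95 in FOD-CCI replicate 1. The log2 difference between sides was −0.64 (SE 0.31, adjusted p = 0.457) over 6 rats, and P2rx5 fell by 1.00 (SE 0.18, adjusted p = 0.0164) without FOD-CCI replicate 1. Against sham DRG it differed by −0.42 (SE 0.29, adjusted p = 0.623) with all libraries and fell by 0.82 (SE 0.23, adjusted p = 0.0665) without the 4 libraries.

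P2ry1 encodes a receptor for ADP that signals through Gq and calcium. It was at 68.7, 25.6, 41.2, and 41.8 CPM in SOD-CT and at 19.7, 14.4, and 14.7 CPM in SOD-CCI. All SOD-CCI libraries were below all SOD-CT libraries, as were 8.24% of the genes tested. In FOD rats CCI and CT overlapped for P2ry1 and for each of the other 9 genes (2.31% of genes were higher and 2.27% lower without overlap), and P2ry1 was at 15.7, 30.8, and 28.7 CPM in sham and at 21.2, 23.7, 16.1, and 17.5 CPM in CCI DRG. In contralateral DRG it was at 34.0, 33.6, and 23.4 CPM in SOD-CCI rats and at 19.9, 31.5, and 32.3 CPM in FOD-CCI rats. The left side held 0.580, 0.429, and 0.627 of the contralateral level in the SOD-CCI rats, 0.752 and 0.499 in FOD-CCI replicates 2 and 3, and 1.07 in FOD-CCI replicate 1.

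P2ry1 had the smallest p of these genes for injury in SOD rats and over both diets. SOD-CCI differed from SOD-CT by −1.42 on the log2 scale (SE 0.33, interval −2.13 to −0.71, unadjusted p = 0.000726, adjusted p = 0.266), and CCI from CT over both diets by −0.88 (SE 0.23, interval −1.36 to −0.40, adjusted p = 0.148). Neither passed the threshold in edgeR, while the DESeq2 Wald test on the same counts gave adjusted p values of 0.0145 and 0.0227. Leaving out a single library brought P2ry1 past the threshold over both diets in 3 cases, with an adjusted p of 0.0819 without FOD-CCI replicate 1, 0.0976 without FOD-CT replicate 1, and 0.0958 without SOD-CT replicate 2. Over the 14 fits that each left out 1 library, 0 to 517 of all genes were called. Without FOD-CCI replicate 1, 1.2% of genes were called lower. The highest P2ry1 value belonged to SOD-CT replicate 1. Without the 4 libraries that stood apart P2ry1 fell by 1.14 in SOD (SE 0.24, adjusted p = 0.0666) and by 0.88 over both diets (SE 0.18, adjusted p = 0.0167), and differed by −0.63 in FOD (SE 0.26, adjusted p = 0.290). Between sides of the same rat the difference was −0.65 (SE 0.18, adjusted p = 0.208, exact sign-change p = 0.0625 over 6 rats), and it fell by 0.78 (SE 0.17, adjusted p = 0.0355) without FOD-CCI replicate 1.

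**Figure D2:**
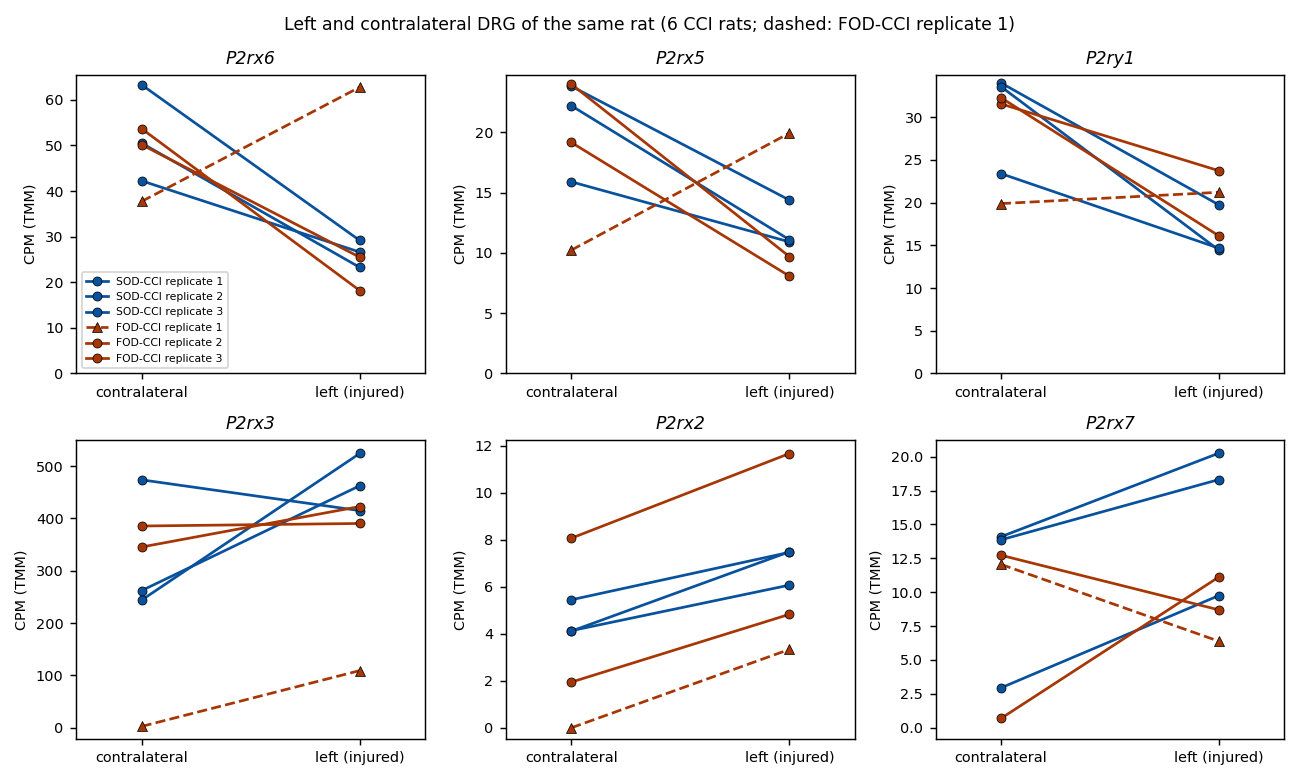
CPM of 6 of the receptor genes in the contralateral and the left DRG of the same rat, 1 line per rat for 3 SOD-CCI rats (blue) and 3 FOD-CCI rats (brown). P2rx6, P2rx5, and P2ry1 are lower on the left in every rat except FOD-CCI replicate 1 (dashed), and P2rx2 is higher on the left in all 6 rats.

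The remaining P2X genes, P2rx4 and P2rx7, are better known from immune cells and glia. P2rx4 overlapped between all groups, at 27.9 to 52.2 CPM in SOD-CT, 24.2 to 41.97 CPM in SOD-CCI, 17.8 to 35.7 CPM in FOD-CT, and 25.8 to 40.3 CPM in FOD-CCI. CCI differed from CT by 0.08 (SE 0.21, interval −0.38 to 0.54), or by 0.018 without the 4 libraries that stood apart, and left from contralateral by 0.21 (SE 0.20, interval −0.23 to 0.65), or by 0.07 (SE 0.19) without FOD-CCI replicate 1. P2rx7 was far more variable. It was at 17 counts (0.689 CPM) in the contralateral library of FOD-CCI replicate 3, 80 counts (2.94 CPM) in that of SOD-CCI replicate 1, and 81 counts (2.51 CPM) in FOD-CT replicate 2, and was otherwise between 6.38 and 20.3 CPM. It was at 8.97, 11.4, 14.2, and 10.8 CPM in SOD-CT and at 9.75, 20.3, and 18.3 CPM in SOD-CCI. In FOD rats it was at 7.33, 2.51, and 8.67 CPM in sham and at 6.38, 8.69, 11.1, and 12.5 CPM in CCI DRG. CCI differed from CT by 0.59 (SE 0.29, interval −0.03 to 1.22, adjusted p = 0.461). Left differed from contralateral by 0.70 (SE 0.59, interval −0.64 to 2.04, adjusted p = 0.694), with ratios between 0.529 and 16.1, the highest in the rat with 17 contralateral counts. Without that rat the difference was 0.081 (SE 0.27), and without FOD-CCI replicate 1 or 2 it was 1.21 (SE 0.59) or 1.14 (SE 0.71).

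The remaining P2Y genes overlapped between CCI and CT in both diets. P2ry2, whose receptor responds to ATP and UTP, was at 19.1 to 28.6 CPM in SOD-CT, 13.7 to 35.1 CPM in SOD-CCI, 13.7 to 20.4 CPM in FOD-CT, and 12.3 to 19.8 CPM in FOD-CCI. Its CCI difference was −0.08 (SE 0.22, interval −0.55 to 0.39) and its side difference −0.29 (SE 0.21, interval −0.76 to 0.18), or −0.033 and −0.15 without FOD-CCI replicate 1. P2ry2 overlaps LOC108349453 on the opposite strand, and since the use of strand in counting is not given, reads of these genes cannot be told apart. P2ry12, the ADP receptor of microglia and platelets, was at 8.74, 9.42, and 13.2 CPM in the 3 libraries with spinal cord glia transcripts and at most 7.18 CPM in the other 17. It had no count in SOD-CT replicate 1. Microglia markers (5 genes) summed to 59.6 to 134 CPM in those 3 libraries and to 10.8 to 123 CPM in the other 17, and their part in the P2ry12 level was not tested. CCI differed from CT by 0.40 (SE 0.65, interval −1.01 to 1.80) for P2ry12, and by 0.22 (SE 0.68) without FOD-CCI replicate 1. P2ry14, the receptor gene for UDP-glucose, stayed between 0 and 6.79 CPM and did not pass the filter on low counts in the left DRG. Between sides it differed by −0.49 (SE 0.47, interval −1.55 to 0.58).

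**Figure D3:**
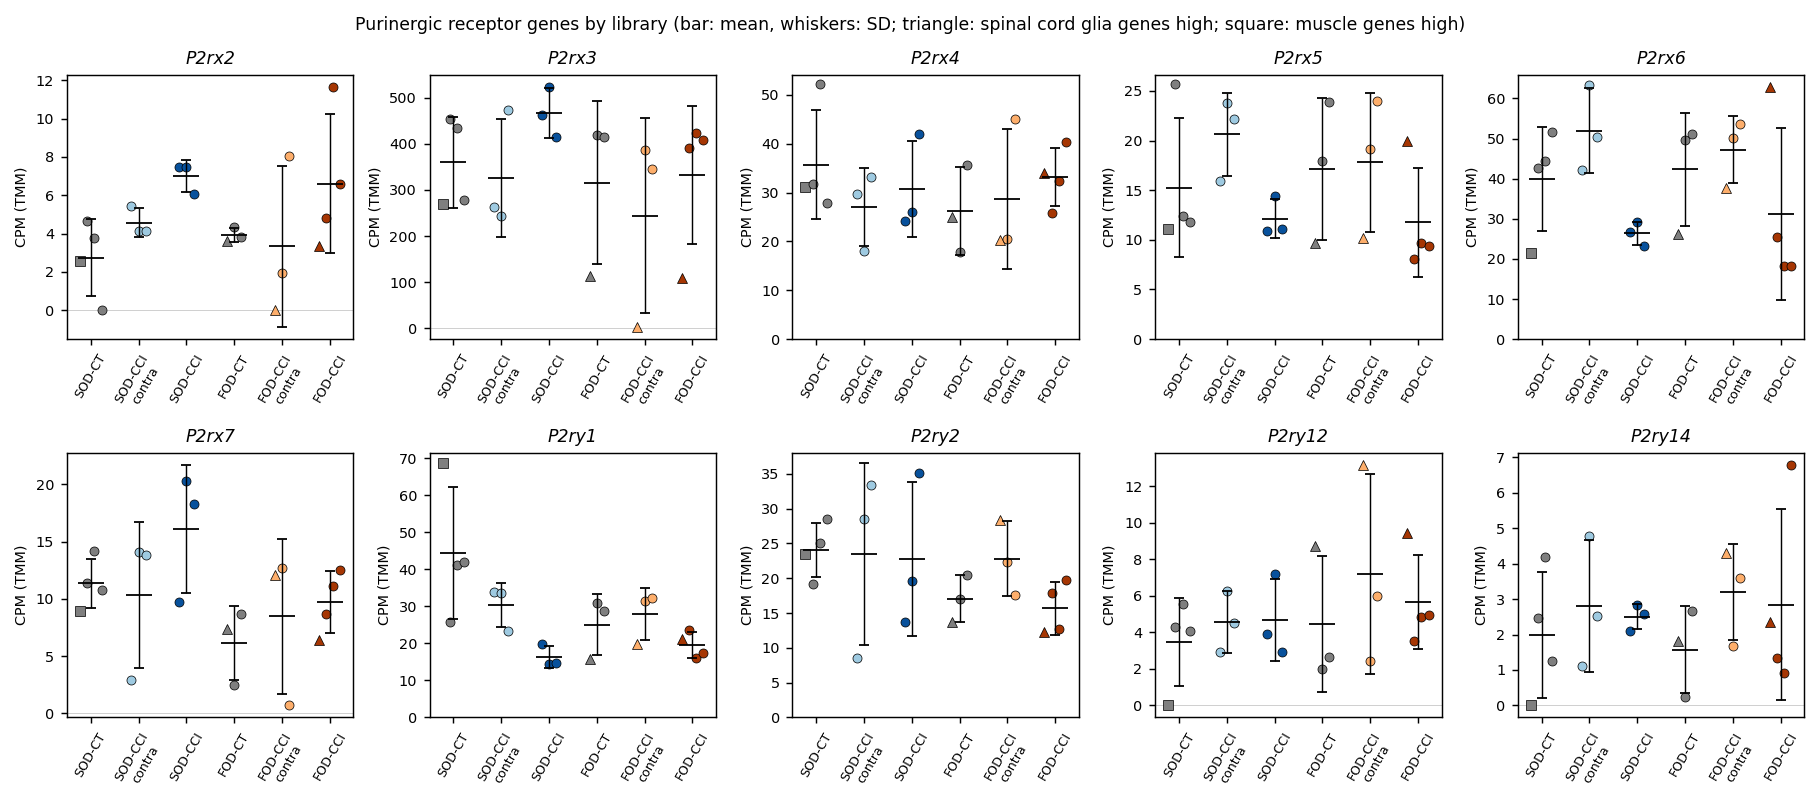
CPM of each gene in every library of the 6 groups (points), with the mean and SD of the group, triangles for the 3 libraries with spinal cord glia transcripts, and a square for SOD-CT replicate 1 with muscle transcripts. Among the CCI libraries P2rx6 and P2rx5 are highest in FOD-CCI replicate 1 (62.8 and 19.9 CPM), and P2rx3 is lowest there (109 CPM).

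Counted together, none of the 9 genes that passed the filter in the left DRG was called between CCI and CT over both diets, and 0% of the 14484 genes tested were called in edgeR. At an unadjusted p under 0.05, 1 of the 9 (P2ry1) differed, against 11.5% of all genes, and DESeq2 called 1 of the 9 (P2ry1, lower) against 3.29%. None was called in SOD rats or in FOD rats alone, as in 0% of genes, and 1 (P2ry1) and 0 of the 9 had an unadjusted p under 0.05, against 13.8% and 4.52% of genes. DESeq2 called 1 of the 9 (P2ry1) in SOD, against 4.10% of genes, and none in FOD. Of the 9 genes, 5 were higher and 4 lower in CCI, with a median log2 difference of 0.08 beside −0.01 over all genes. Without the 4 libraries 3 of 10 were called, all lower (P2rx6, P2ry1, and P2rx5), against 3.44% of 15177 genes called lower. Leaving out only FOD-CCI replicate 1 gave 2 of 9 (P2rx6 by −0.80, adjusted p = 0.0937, and P2ry1), against 1.2% of genes called lower, and leaving out the 3 spinal cord libraries gave the same 2 genes, against 1.25%.

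For the left against the contralateral side over both diets, none of the 10 genes was called, and 0.962% of 14549 genes were. At an unadjusted p under 0.05, 2 of the 10 differed (P2rx6 and P2ry1), against 11.6% of all genes, and DESeq2 called the same 2 genes against 5.43% of all genes. The median log2 difference of the 10 genes was −0.16 beside 0.03 over all genes. Without FOD-CCI replicate 1, 3 of 10 were called, all lower on the left (P2rx6, P2rx5, and P2ry1), against 3.33% of 14992 genes called lower. In the 3 SOD-CCI rats and the 3 FOD-CCI rats taken apart, no member was called, against 0.131% and 0.0137% of genes. At an unadjusted p under 0.05, 2 and 0 of the 10 differed there, against 8.48% and 6.96% of genes, and DESeq2 called none in either. Without FOD-CCI replicate 1, P2rx6 fell by 0.95 and P2ry1 by 0.87 in the SOD-CCI rats (adjusted p = 0.0471 and 0.0904, beside 1.11% of genes called lower), and P2rx6 fell by 1.25 in the remaining 2 FOD-CCI rats (adjusted p = 0.0780, beside 0.314%). FOD-CCI replicate 4 has no contralateral library and was not part of these comparisons.

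**Figure D4:**
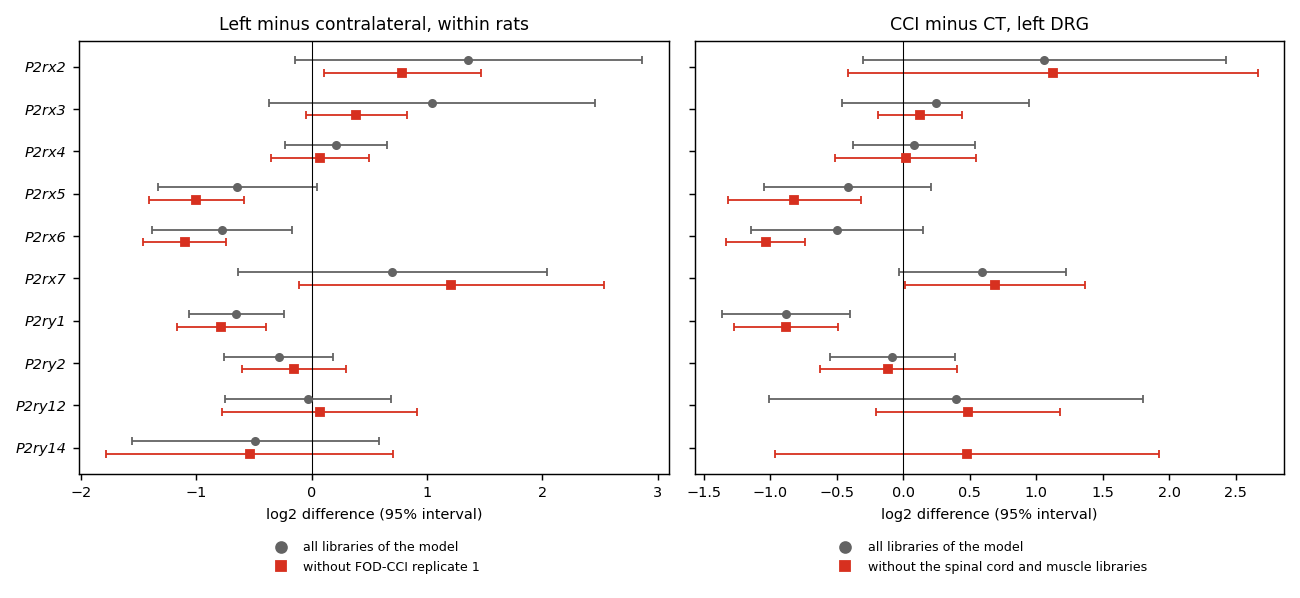
Log2 difference of each gene with its 95% interval, for left minus contralateral DRG within rats and for CCI minus CT in left DRG, over both diets, with all libraries of the model (gray circles) and without the libraries that stood apart (red squares). The intervals of P2rx6, P2rx5, and P2ry1 lie below 0 in both comparisons once those libraries are left out, and P2ry14 has no gray circle for CCI minus CT because it did not pass the filter there.

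In these whole ganglia fewer cells of a type and less RNA per cell cannot be told apart, so the level of general neuron markers is given beside these 3 genes. The 10 neuron markers, Nefl among them, summed to 16114 to 22255 CPM in the 6 left CCI libraries with the injury marker. They summed to 17241 to 23153 CPM in the 10 sham and contralateral libraries that did not stand apart. Relative to that sum, P2rx6 differed between sides by a mean of −1.05 on the log2 scale (SD 0.48), P2rx5 by −0.91 (SD 0.40), and P2ry1 by −0.93 (SD 0.73), each lower on the left in 6 of 6 rats, FOD-CCI replicate 1 included. Without that rat the means were −0.96, −0.84, and −0.69. P2rx3 and P2rx2 were higher on the left relative to it in 6 of 6 rats, by 0.97 (SD 1.15) and 1.47 (SD 1.54), and by 0.54 (SD 0.52) and 0.87 (SD 0.53) without FOD-CCI replicate 1. Of all genes tested, 3.90% were lower and 0.715% higher on the left in 6 of 6 rats on this scale. For FOD-CCI replicate 1 this ratio divides by the low neuronal content of the contralateral library. Before that scaling P2rx6, P2rx5, and P2ry1 were higher on the left in this rat, by 0.73, 0.96, and 0.09 on the log2 scale. The direction of these 3 genes in that rat therefore comes from the scaling, and its left library lacked the injury marker. Macrophage markers (11 genes) summed to 208 to 730 CPM in the same 6 left CCI libraries and to 38.0 to 263 CPM in the same 10 uninjured ones, and the part of these cells in the results was not tested.

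The diet was compared to ask whether fish oil altered these receptors with or without injury. In injured DRG, FOD-CCI and SOD-CCI overlapped for all 10 genes (7.2% of all genes were higher and 7.46% lower in every FOD-CCI than in every SOD-CCI library), and 0 of the 9 tested were called, as were 0% of all genes. No member reached an unadjusted p under 0.05 in that comparison, which 5.40% of all genes did, and DESeq2 also called none of the 9. The differences were −0.49 for P2rx3 (SE 0.46, interval −1.47 to 0.50), 0.25 for P2rx6 (SE 0.43, interval −0.67 to 1.16), and 0.27 for P2ry1 (SE 0.32, interval −0.41 to 0.96). P2rx7 differed by −0.73 (SE 0.41, interval −1.61 to 0.15, unadjusted p = 0.0966, adjusted p = 0.859) and P2ry2 by −0.54 (SE 0.31, interval −1.20 to 0.12). Without FOD-CCI replicate 1, P2rx6 turned to −0.36 (SE 0.32, interval −1.05 to 0.34) and P2rx3 was at −0.20 (SE 0.39, interval −1.04 to 0.65), while P2ry1, P2rx7, and P2ry2 were at 0.23, −0.58, and −0.44. With all libraries the intervals are wide enough to hold changes of more than 1.2-fold in both directions for each of P2rx3, P2rx6, and P2ry1.

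In sham DRG, P2rx7 was lower in all FOD-CT than in all SOD-CT libraries, as were 1.48% of genes (1.72% were higher), with a log2 difference of −0.86 (SE 0.42, unadjusted p = 0.0616, adjusted p = 0.965). P2ry1 differed by −0.81 there (SE 0.32, unadjusted p = 0.0254, adjusted p = 0.965), the only 1 of the 9 genes under 0.05 against 3.39% of all genes, and neither edgeR (0% of genes called) nor DESeq2 called any member. The test of the diet by injury interaction had 0 of 9 genes called and 0% of all genes. P2ry1 was again the only 1 under an unadjusted p of 0.05, against 5.01% of genes, with an interaction of 1.08 (SE 0.45, unadjusted p = 0.0316, adjusted p = 0.894), with the smaller negative difference in FOD. The comparisons of P2ry1 share the SOD-CT libraries, among them SOD-CT replicate 1, and without the 4 libraries that stood apart the P2ry1 interaction was 0.51 (unadjusted p = 0.184, adjusted p = 0.801) and its FOD-CT difference −0.27 (adjusted p = 1.00), while that of P2rx7 was −1.10 (unadjusted p = 0.0385, adjusted p = 1.00). The difference between the left-to-contralateral changes of the diets had no member called (0% of 14549 genes) and none at an unadjusted p under 0.05, against 2.91% of genes.

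Contralateral DRG were compared with sham DRG, which asks whether the uninjured side of an injured rat differs from a rat with no ligature. In SOD, FOD, and between diets on the contralateral side, 0 of the 8 genes that passed the filter were called, with 0% of 14007 genes called in each, and none had an unadjusted p under 0.05, which 7.06%, 1.71%, and 7.10% of genes had. DESeq2 called none of the 8 in any of the 3. The log2 differences of the 8 genes from sham lay between −0.56 and 0.42 in SOD and between −0.37 (P2rx3) and 0.69 (P2ry12) in FOD. Both FOD values turned direction without the contralateral library of FOD-CCI replicate 1, to 0.21 (SE 0.49) for P2rx3 and −0.12 (SE 1.19) for P2ry12.

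ATP reaches these receptors through release channels and is removed by ectonucleotidases, and 41 further genes of nucleotide release, breakdown, adenosine handling, and the other purinergic receptors were listed by role, of which 39 were in the files. Over both diets, 27 were tested between the sides, with a median log2 difference of −0.02 beside 0.03 over all genes. Panx1 alone was called, beside 0.962% of all genes. It encodes pannexin 1, a channel that lets ATP out of cells. Panx1 was at 56.2, 37.8, and 39.8 CPM on the left and 26.5, 18.3, and 17.7 CPM on the contralateral side of the SOD-CCI rats. In the FOD-CCI rats it was at 23.8, 26.3, and 52.04 CPM on the left and 14.6, 15.8, and 25.9 CPM on the contralateral side. The left side was higher in each of the 6 rats, as were 4.90% of the 14549 genes tested. Among the 6 is FOD-CCI replicate 1, whose left library lacked the injury marker. The rise was 0.97 on the log2 scale (SE 0.13, adjusted p = 0.0305). DESeq2 called 5 of the 27, Panx1, Pnp, Slc29a4, and P2ry6 higher and Ampd2 lower, beside 5.43% of all genes. Against sham DRG none of the 28 genes tested was called in edgeR (0% of all genes), while DESeq2 called Panx1 and Pnp higher, beside 3.29% of all genes called. Without the 4 libraries that stood apart, 6 of the 28 rose (Panx1, Pnp, Entpd2, Slc29a4, Ada, and P2ry6) and 2 fell (Entpd3 and Entpd4), where 4.34% of all genes were called higher and 3.44% lower.

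The other genes named by role did not pass the threshold between the sides with all 6 rats. Among the receptors P2ry6, a UDP receptor gene, differed by 1.70 (SE 0.66, adjusted p = 0.361), Adora2b by −0.35 (SE 0.48), and Adora1 by −0.26 (SE 0.19). Among the release genes Gja1 differed by −0.14 (SE 0.15) and Lrrc8a by 0.12 (SE 0.17). The ectoenzyme genes Enpp1, Enpp2, and Entpd3 differed by −0.54 (SE 0.35), −0.47 (SE 0.21), and −0.43 (SE 0.36). Without FOD-CCI replicate 1, Enpp1 was at −0.15 (SE 0.22), Adora2b at −0.75 (SE 0.42), Gja1 at −0.042 (SE 0.15), and Lrrc8a at 0.064 (SE 0.18), none of them called. For adenosine handling, the transporter gene Slc29a4 differed by 1.04 (SE 0.27, adjusted p = 0.180), Pnp by 0.66 (SE 0.19), and Ada by 0.65 (SE 0.33). In the fit without FOD-CCI replicate 1, 3 of the 27 rose (P2ry6 by 2.29, Panx1 by 1.00, and Pnp by 0.82, adjusted p = 0.0210, 0.00572, and 0.0270) and 3 fell (Entpd3 by 0.89, Entpd4 by 0.75, and Ampd2 by 0.50, adjusted p = 0.00538, 0.0150, and 0.0924), where 4.32% of all genes were called higher and 3.33% lower. Entpd3 and Entpd4 encode enzymes that hydrolyze nucleoside triphosphates and diphosphates, P2ry6 and Panx1 act as above, and Pnp and Ampd2 encode enzymes of purine breakdown.

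The genes whose log2 CPM ran most nearly parallel to each receptor gene were listed over the 20 libraries, and over the 17 without spinal cord glia transcripts. The points share the composition and depth of the libraries, so the correlations are a description. P2rx3 ran closest to Trpm8 (Pearson r = 0.986), Sytl3, Coro2a, Scn10a (r = 0.971), and Tusc5 over 20 libraries, where Trpm8 and Scn10a are ion channel genes of small sensory neurons. Over 17 libraries none of these 5 was among its closest, and Hnrnpul2 led at r = 0.852. P2rx6 ran with Sh3glb2, Sema7a, Lgi3, Fads6, and Cntn4 (r = 0.871 to 0.902) over 20 libraries. Over 17 it ran closest to Nefl, the neurofilament light chain gene, at r = 0.948, and Nefl is also in the neuron marker sum above. P2rx5 shared Sh3glb2 and Fads6 with P2rx6 over 20 libraries. It ran closest to Ntng1 (r = 0.842) over 20 libraries and to Abhd8 (r = 0.880) over 17. P2ry1 ran closest to Fabp3 (r = 0.904 over 20 and 0.920 over 17 libraries), a fatty acid-binding protein gene known from muscle, and P2ry1 and muscle transcripts were both highest in SOD-CT replicate 1, where the part of muscle in the P2ry1 level was not tested. P2ry2 ran with the myelin genes Cldn19 (r = 0.936) and Prx (r = 0.906). Over 20 libraries P2ry12 ran closest to Gas8 (r = 0.962), P2rx7 to Btbd8 (r = 0.905), and P2rx2 to Gpr35 (r = 0.921). P2ry14 ran closest there to LOC690923 (r = 0.932), and P2rx4, the loosest, to Cxadr (r = 0.705). Over 17 libraries other genes led for each of them. These were Ctu1 for P2ry12 (r = 0.978), Malt1 for P2rx7 (r = 0.928), and Camk4 for P2rx2 (r = 0.960). For P2ry14 it was Pak2 (r = 0.954), and for P2rx4 LOC100910979 (r = 0.778).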

How the data were processed

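The authors made poly-A libraries from DRG RNA and deposited whole-number counts per gene and FPKM, which they obtained with fastp (trimming), HISAT2 (alignment), and featureCounts 1.5.0-p3. Per the labels both stranded and unstranded preparation are possible, and the genome build, use of strand, and handling of multiply aligned reads are not given in the sources used here. The deposited FPKM equals the count divided by gene length and a constant per library, 0.628 to 1.13 times the library total. Features without a symbol (3781 of 39747) held 0.646 to 1.17% of counts and were kept.

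Groups came from the sample labels. A feature needed 10 or more counts in 90% of a model's libraries and was then tested in edgeR 4.0.16 (R 4.3.3) with TMM and the two-sided quasi-likelihood test, in 3 models: the 14 left libraries, the 12 libraries of the 6 rats with both sides (rat as a block), and the 13 sham and contralateral libraries. Calls required an adjusted p (Benjamini-Hochberg, over all genes tested) no larger than 0.1 together with a fold change of 1.2 or more. Scripts were tested on simulated data. Single genes were tested across rats by exact sign changes on log2 CPM (prior count 1). Intervals are 95% intervals from the quasi-likelihood fit. Floors for 0 counts cover counting error only. DESeq2 1.42.0, other size factors, no filter, and libraries left out were alternatives, the last partly chosen after seeing the data. Deviations from group means correlated between the sides of a rat at 0.113 to 0.430. FOD-CT and FOD-CCI libraries of the same replicate number, from different rats, also deviated together (0.191 to 0.429), and a replicate block changed no call of a member there. Each rat is 1 replicate.

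The genes, lists, and tests were chosen with earlier results of these data known. The text names the 10 genes, pathway genes called or among the 3 largest differences between sides per role, the 5 genes most correlated with each receptor (some omitted for length, and 1 withheld gene, with the marker sum that holds it, is not reported here), and Atf3 as a check of the injured side. Adora3 and Slc29a2 of the list were not found, and Acpp stands for Acp3. Sequences are from RefSeq (GRCr8). P2rx2, P2rx5, and P2ry12 have no entry in the promoter table.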

Additional observations from a re-analysis of the deposited data

Results flagged for a closer look

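In the 2 groups of 4 libraries, 5 of 20 pairs of gene and group had a library far from the other 3 (a gap to its nearest neighbour above Dixon's critical value at the 95% level, with gaps of 0.836 to 0.908 of the range), whereas chance flags about 1 in 20. In FOD-CCI they were P2rx3, lowest at 109 CPM, P2rx5, highest at 19.9 CPM, and P2rx6, highest at 62.8 CPM, and all 3 values belong to replicate 1, the library with spinal cord glia transcripts and without the injury marker. In SOD-CT they were P2rx4, highest at 52.2 CPM in replicate 3, and P2rx5, highest at 25.7 CPM in replicate 2. No member differed between diets in its change with injury or between sides by the test of that difference.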

How the results depend on the processing

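Among left DRG and between sides, 76 member results were followed (contralateral against sham DRG is not counted, and the interaction only for P2ry1). Of these, 51 kept their direction in every alternative run and 25 reversed in at least 1. Main counts of called members were 0 in every comparison, so all 76 were uncalled there, whether they reversed or not. Leaving out the spinal cord and muscle libraries gave 2 for SOD-CCI against SOD-CT, 1 for FOD-CCI against FOD-CT, and 3 for CCI against CT over both diets, where leaving out the spinal cord libraries alone gave 2. DESeq2 gave 1, 0, and 1 for the same comparisons and 2 for left against contralateral DRG over both diets, and over all genes it called 594, 21, 476, and 790 against 0, 0, 0, and 140 in edgeR. With each rat left out in turn, the counts of called members ranged from 0 to 2 for CCI against CT over both diets. Between sides they ranged from 0 to 2 in SOD-CCI rats, 0 to 1 in FOD-CCI rats, and 0 to 3 over both diets. The highest of these values came without FOD-CCI replicate 1. Over the same runs, in the same order, the number of all genes called ranged from 0 to 517, 0 to 471, 0 to 137, and 8 to 1146. In the exact test between sides 1 gene (P2rx2) had a p under 0.05, and 0 did without FOD-CCI replicate 1 (5 rats cannot reach it). Relative to the neuron markers 5 did, with that rat included. The fit with a replicate block, or without it between sides, changed no call of a member. Ordering by the median gave the same order of FPKM. The alternatives that leave out all doubted libraries together, and the ratio to neuron markers, were chosen after seeing the data.

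The reversed values are log2 differences, and the cause was not tested. P2rx3 reversed for FOD-CCI against FOD-CT (−0.020 without the spinal cord libraries and −0.027 without the muscle library as well) and for FOD-CT against SOD-CT (0.22 and 0.11). For FOD-CCI against SOD-CCI, P2rx2 was at 0.35 with the replicate block and at 0.14 and 0.15 without those libraries, P2rx5 at 0.11 with the block, P2rx6 at −0.36 and −0.35, and P2ry12 at −0.070 and −0.068. For FOD-CT against SOD-CT, P2ry12 was at −0.59 and −0.99. Between the sides of SOD-CCI rats P2ry2 was at −0.026 and P2ry14 at −0.14 with no replicate block, and P2ry12 at −0.0044 with no filter. Leaving out each library or rat in turn also turned directions. For SOD-CCI against SOD-CT the ranges that crossed 0 were those of P2rx4 (−0.49 to 0.049), P2rx5 (−0.45 to 0.076), P2ry12 (−0.0060 to 0.76), and P2ry2 (−0.51 to 0.21). For FOD-CCI against FOD-CT the ranges that crossed 0 were those of P2rx3 (−0.31 to 0.38), P2ry12 (−0.0090 to 1.32), and P2ry2 (−0.25 to 0.029). For CCI against CT over both diets the ranges that crossed 0 were those of P2rx4 (−0.066 to 0.22) and P2ry2 (−0.31 to 0.049). For FOD-CCI against SOD-CCI the ranges that crossed 0 were those of P2rx2 (−0.51 to 0.14), P2rx4 (−0.032 to 0.41), P2rx5 (−0.42 to 0.11), P2rx6 (−0.36 to 0.44), and P2ry12 (−0.069 to 0.74). For FOD-CT against SOD-CT the ranges that crossed 0 were those of P2rx3 (−0.43 to 0.22), P2rx5 (−0.13 to 0.57), P2rx6 (−0.11 to 0.34), and P2ry12 (−0.59 to 0.73). For left against contralateral DRG of SOD-CCI rats the ranges that crossed 0 were those of P2ry12 (−0.19 to 0.32), P2ry14 (−0.34 to 0.48), and P2ry2 (−0.21 to 0.37). For left against contralateral DRG of FOD-CCI rats the ranges that crossed 0 were those of P2rx4 (−0.061 to 0.55), P2rx7 (−0.73 to 1.54), and P2ry12 (−0.38 to 0.12). For left against contralateral DRG over both diets the range that crossed 0 was that of P2ry12 (−0.18 to 0.12).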
